A study of Mus musculus with 29 samples.

Results

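Left ventricles of Young mice without RAGE, the receptor for advanced glycation end-products, were set against those of Young wild-type (WT) mice. The comparison held 5 Rage-/- and 5 WT mice, taken by their sample labels, out of 29 mice in the series. All 10 were female, of the C57BL/6N strain by their labels and 10 weeks old, and were perfused with phosphate-buffered saline before the heart was frozen. Rage-/- mice lack the product of the Ager gene, both on the cell surface and as a soluble protein. The WT mice came from a commercial colony, and the sources used here do not say whether the genotypes were littermates. The other mice of the series were Middle Age (MA, 12 months, 4 Rage-/- and 4 WT) and Old (21 months, 6 Rage-/- and 5 WT).

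RAGE binds sugar-modified proteins, S100 proteins and HMGB1, and passes their signal to NF-kappaB and other inflammatory pathways. It is abundant in lung and scarce in most other healthy tissues, the heart included. The ventricle itself is built mainly of cardiomyocytes, which burn fatty acids, ketones and glucose in their mitochondria, with endothelial cells, fibroblasts and resident macrophages between them.

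Each mouse had 1 array of an Illumina MouseWG-6 BeadChip, where brighter beads report more of a probe's transcript. Rage-/- arrays detected 9344 to 12220 probes (median 11333) and WT arrays 10302 to 13676 (median 11089), and arrays of the same genotype correlated at 0.905 to 0.98. Young Rage-/- 4 had the fewest detected probes. The 10 arrays lay on 3 BeadChips, here called A, B and C. BeadChip A held Rage-/- 5 and WT 5, BeadChip B held Rage-/- 3 and 4 with no Young WT array, and BeadChip C held Rage-/- 1 and 2 with WT 1 to 4. All 4 MA WT arrays lay on BeadChip B and all 4 MA Rage-/- arrays on a further BeadChip. Genotype and BeadChip therefore cannot be told apart in MA mice. Old Rage-/- 1 to 4 lay on BeadChip A, which held no Old WT array. Values per mouse are normalized log2 intensities, in which 1 unit is a doubling of brightness, and are listed from mouse 1 to mouse 5. They are not adjusted for the surrogate variables, which stand for unmeasured variation between arrays. Differences are Rage-/- minus WT on the same log2 scale, fitted by limma with those variables and given ± standard error, so that a fitted difference can depart from the difference of the group means. The word called is kept for probes whose p, adjusted by Benjamini and Hochberg over the 13277 probes tested, was under 0.05. Since these are whole ventricles, fewer cells of a type and less RNA per cell cannot be told apart.

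Few transcripts differed between Young Rage-/- and Young WT ventricles, and most of those called were lower in Rage-/- mice. Loss of RAGE and the source of the mice cannot be told apart here. Of 13277 probes, 90 were called (0.678%), 16 higher and 74 lower in Rage-/- mice. Taking each named gene by its brightest probe, 60 of 8189 genes were called (0.733%), 13 higher (0.159%) and 47 lower (0.574%). Genes of interferon responses and antigen display, 138 of the 8189, held 33 of the calls, all lower. Outside them 27 of 8051 genes were called (0.335%), 13 higher and 14 lower, and these were spread over many processes. Another 3 higher and 13 lower calls came from the 1773 probes without a single gene name. The median difference was 0.016 over all named genes and 0.018 outside interferon and antigen display.

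**Figure D1:**
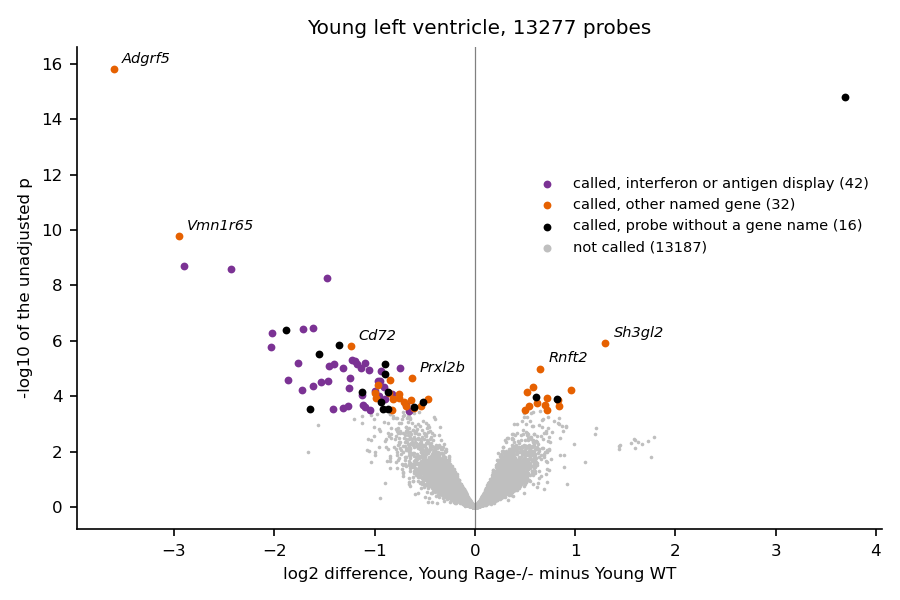
Each point is 1 of 13277 probes, with its log2 difference (Young Rage-/- minus Young WT) on the horizontal axis and -log10 of its unadjusted limma p on the vertical axis. Colours mark the 90 called probes by kind of gene; the called points lie mostly left of 0, and Adgrf5, Vmn1r65 and a bright unnamed probe at the right edge stand furthest out.

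These calls rested unevenly on the arrays. In the authors' normalized values 123 probes were called (0.926%), among them 15 of the 27 genes outside interferon and antigen display. Sh3gl2, Cdsn, Klhdc9, Bdh1, Tcaf2, Akap5, Acot2, C4b, Hsp90aa1, Gm9961, Mtmr3 and Cyp4b1-ps2 were not called there. With the BeadChip as a fixed block 27 probes were called (0.203%), and within BeadChips A and C alone, 8 arrays fitted without surrogate variables, 14 (0.105%). Of the 27 genes, Adgrf5, Vmn1r65 and Prxl2b kept the call with the block and Adgrf5 and Vmn1r65 within the 2 BeadChips, while all 27 had the same sign in each of these fits. The fits reuse the arrays that picked the genes, so the same sign was largely built in. Leaving out 1 mouse gave 47 calls without Rage-/- 1 and 53 without WT 2, and 60 to 119 without each of the others.

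Adgrf5 and a probe without a gene name had the 2 largest differences. Adgrf5 is a receptor of the adhesion GPCR family, found on endothelium and lung epithelium. Its probe read 4.95, 4.82, 4.59, 4.53 and 4.64 in Rage-/- mice, against 8.31, 8.23, 7.87, 8.61 and 8.67 in WT mice. No Rage-/- array was well above background for it, meaning a detection p under 0.01, and every WT array was. Adgrf5 was at least 5.90-fold lower in Rage-/- ventricles, with a fitted difference of -3.60 ± 0.17 and limma adjusted p = 2.06e-12. For this and the other bounds, the brighter genotype's mean was set against the lowest signal well above background on each array of the dimmer one, or the probe's own signal where that was higher. The difference was -3.48 in MA and -3.40 in Old mice. In the authors' values the Young difference was -0.90 (adjusted p = 1.02e-07).

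The probe ILMN_2476405, which the platform annotation pairs with no gene, behaved in the opposite way. It read 8.73, 9.31, 8.77, 8.31 and 8.43 in Rage-/- mice, against 5.06, 4.93, 4.98, 5.03 and 5.19 in WT mice. All 5 Rage-/- arrays were above background and no WT array was, which made it at least 8.30-fold higher in Rage-/- mice (limma adjusted p = 1.06e-11). Each of the 10 arrays fell on the side of its genotype label for both probes. Both were picked for their difference between these labels, so this is no check of the labels. Ager itself has no named probe among those tested, so its own transcript was not analysed here.

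Adgrf5 lies on chromosome 17, as Ager does, 330 places away in the order of annotated genes. Within 400 genes of Ager on either side, 198 genes were measured and 7 were called (3.54%), 1 higher and 6 lower. On the rest of chromosome 17 the share was 0.922%, and on the other chromosomes 0.656%. This stretch holds the major histocompatibility complex, so interferon and antigen genes were also set aside. Of the remaining 175 genes near Ager, 4 were called (2.29%): Adgrf5, C4b and Cmtr1 were lower and Cdsn was higher. On other chromosomes the share outside those genes was 0.287%. What part the place near Ager has in these differences was not tested.

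Cdsn encodes corneodesmosin, an adhesion protein of skin. Rage-/- mice had 5.97, 5.97, 5.84, 6.65 and 6.18, against 4.82, 5.21, 5.48, 5.05 and 4.75 in WT mice, with no overlap. All 5 Rage-/- arrays and no WT array were above background, and Cdsn was at least 1.38-fold higher in Rage-/- mice (limma adjusted p = 0.0174). In MA mice its difference was also called, at 0.94 (adjusted p = 0.0279). Rab26os, an RNA annotated opposite to the vesicle gene Rab26, was the only gene called higher on the rest of chromosome 17 and had 7.37, 6.99, 7.46, 8.01 and 7.32 in Rage-/- mice, against 7.05, 6.98, 6.92, 6.66 and 6.45 in WT mice. Its difference was 0.58 ± 0.12 (adjusted p = 0.0148). Whether its probe also reads Rab26 was not tested.

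Among genes called higher, membrane traffic and ubiquitin were represented by 1 gene each. Sh3gl2 encodes endophilin A1, which bends membrane as vesicles form and is best known at synapses. It read 7.02, 6.49, 6.84, 6.27 and 7.61 in Rage-/- mice, against 5.62, 5.47, 6.11, 5.97 and 5.29 in WT mice. The Sh3gl2 probe was above background on 5 Rage-/- and 3 WT arrays. The genotypes did not overlap, as in 1.61% of all named genes, and the difference was 1.30 ± 0.20 (adjusted p = 0.00147). In the authors' values it was 0.23 (adjusted p = 0.141). The list of endocytosis and membrane trafficking genes around it had 1 of 29 measured genes called and a median of 0.055. Rnft2, a membrane protein with a RING finger of the kind found in ubiquitin ligases, had 7.06, 6.94, 7.14, 7.55 and 7.25 in Rage-/- mice, against 6.52, 6.33, 6.88, 6.51 and 6.21 in WT mice. Its difference was 0.65 ± 0.11 (adjusted p = 0.00496), again without overlap. It was the only call among 25 ubiquitin ligase and atrophy genes, of which 17 had negative differences. These 2 genes kept the call without each of the 10 mice in turn; Rab26os lost it without Rage-/- 1 or 5 (highest adjusted p 0.0585) and Cdsn without Rage-/- 5 or WT 5 (0.0902).

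Of 2 called genes of fuel use, Bdh1 was higher and Acot2 lower. Bdh1, the mitochondrial enzyme that interconverts the ketone bodies beta-hydroxybutyrate and acetoacetate, read 10.45, 10.41, 10.03, 9.88 and 9.82 in Rage-/- mice, against 8.63, 9.39, 9.92, 9.26 and 8.58 in WT mice. WT 3 lay within the Rage-/- range and the other 4 WT mice below it, and the difference was 0.83 ± 0.18 (adjusted p = 0.0272). Acot2, a mitochondrial thioesterase that frees fatty acids from coenzyme A, read 5.49, 6.76, 5.91, 5.79 and 4.61 in Rage-/- mice, against 5.87, 6.50, 6.28, 6.31 and 6.37 in WT mice. Here Rage-/- 2 was the highest of all 10 mice and Rage-/- 5 the lowest, and the probe was above background on 2 Rage-/- and 5 WT arrays. The fitted difference of -0.96 ± 0.19 (adjusted p = 0.0137) was larger than that of the group means, and a second Acot2 probe differed by -0.097 (adjusted p = 0.952). Without surrogate variables neither gene was called. Bdh1 lost its call without 8 of the 10 mice, one at a time, and Acot2 without Rage-/- 1, Rage-/- 5 or WT 1.

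Acot2 belongs to the genes switched on by PPAR receptors, which sense fatty acids, and their coactivator PGC-1. Of 18 measured targets, 15 had negative differences, with a median of -0.28, against 47.0% negative and a median of 0.016 over all named genes. Acot2 was the only member called. Another 3 members, chosen after their values were seen, had differences of similar size that were not called. Angptl4, a blocker of lipoprotein lipase, differed by -1.08 (adjusted p = 0.267). Pdk4, which turns pyruvate dehydrogenase off, differed by -1.0 (0.29), and Acot1, the cytosolic neighbour of Acot2, by -0.70 (0.207). Pdk4 read 10.10, 11.12, 10.43, 8.65 and 9.70 in Rage-/- mice, against 10.24, 10.36, 10.53, 11.20 and 12.53 in WT mice, which shows how wide the spread within a genotype was for these genes. The median of the targets stayed negative in each of 24 alternative fits, at -0.14 within the BeadChips, -0.097 in the authors' values and -0.17 without WT 5. Rage-/- 4 had the lowest score of the list (-0.68) and WT 5 the highest (0.57). The median was 0.11 in MA mice.

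The enzymes of fuel oxidation themselves varied little. Of 23 fatty acid oxidation genes 17 had negative differences, with a median of -0.087 and only Acot2 called. Glycolysis and glucose use had no call among 22 genes (median -0.037), and its smallest p values belonged to Pdk2 (-0.49, adjusted p = 0.384) and Pgam1 (-0.23, adjusted p = 0.694). The citric acid cycle had none among 16 (median -0.051), led by Idh3a (0.25, adjusted p = 0.536) and Suclg2 (-0.22, adjusted p = 0.622). Lipid and sterol synthesis had none among 17, led by Lpin1 (-0.31, adjusted p = 0.439) and Insig1 (0.48, adjusted p = 0.551). Insulin and IGF signaling had none among 22, led by Igf1r (-0.53, adjusted p = 0.25) and Mtor (-0.33, adjusted p = 0.51). In each sentence of this kind the first number after a gene is its log2 difference, and the 2 genes named are those of smallest p. At the 0.733% called over all named genes, most lists of this size, here and below, would hold no call.

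Signalling scaffolds gave a pair of opposite calls. Akap1 anchors protein kinase A to the outer mitochondrial membrane, and Akap5 anchors it near channels and receptors of the plasma membrane. Akap1 read 8.79, 8.97, 8.94, 9.40 and 8.72 in Rage-/- mice, against 9.56, 9.65, 9.53, 9.32 and 9.17 in WT mice, and fell by 0.53 ± 0.12 (adjusted p = 0.0393). Rage-/- 4 overlapped the WT range. Akap5 read 6.31, 6.60, 6.53, 4.65 and 6.70 in Rage-/- mice, against 6.49, 5.48, 5.86, 5.19 and 5.47 in WT mice. Its fitted difference was 0.84 ± 0.19 (adjusted p = 0.0393), but Rage-/- 4 was the lowest of all 10 mice, and all 5 WT mice lay inside the Rage-/- range. The Akap5 probe was above background on 4 Rage-/- and 2 WT arrays. The adrenergic and G protein signaling list had no call among 22 genes and a median of 0.004; Adcy6 (-0.33, adjusted p = 0.358) and Gnas (-0.45, adjusted p = 0.406) had the smallest p values. Each scaffold gene lost its call without 6 of the 10 mice, one at a time, with adjusted p up to 0.178 for Akap1 and 0.167 for Akap5.

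The other 7 genes called higher have unlike roles. Taok1 encodes a kinase upstream of stress-activated MAP kinases (0.52, adjusted p = 0.0191), Pdcd4 an inhibitor of translation initiation (0.62, adjusted p = 0.0323), and Nrep a small protein first described in regenerating nerve (0.72, adjusted p = 0.0482). Tmem86a, a lysoplasmalogenase that cleaves plasmalogen lipids, had 9.78, 9.73, 9.59, 9.47 and 9.55 in Rage-/- mice, against 9.36, 9.26, 9.21, 8.90 and 8.95 in WT mice, with no overlap (0.50, adjusted p = 0.0483). Magee1, a partner of the dystrophin complex, differed by 0.55 (0.0397), Tcaf2, which binds a cold-sensing channel, by 0.69 (0.0378), and the kelch-domain gene Klhdc9 was called at an adjusted p of 0.0264. For Klhdc9 3 Rage-/- arrays and no WT array were above background, and no bound on its fold is given. Tcaf2 was above background on 3 Rage-/- and 2 WT arrays, so the size of its difference is uncertain. Rage-/- 4 was far below the other Rage-/- mice for Taok1 (8.97 against 9.89 to 10.11), Magee1 (6.56 against 7.89 to 8.22) and Akap5. In all, 4 of the 13 genes called higher had every Rage-/- mouse above every WT mouse, a pattern seen in 0.562% of all named genes. These 7 lost their calls without 3 to 9 of the 10 mice, one at a time.

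**Figure D2:**
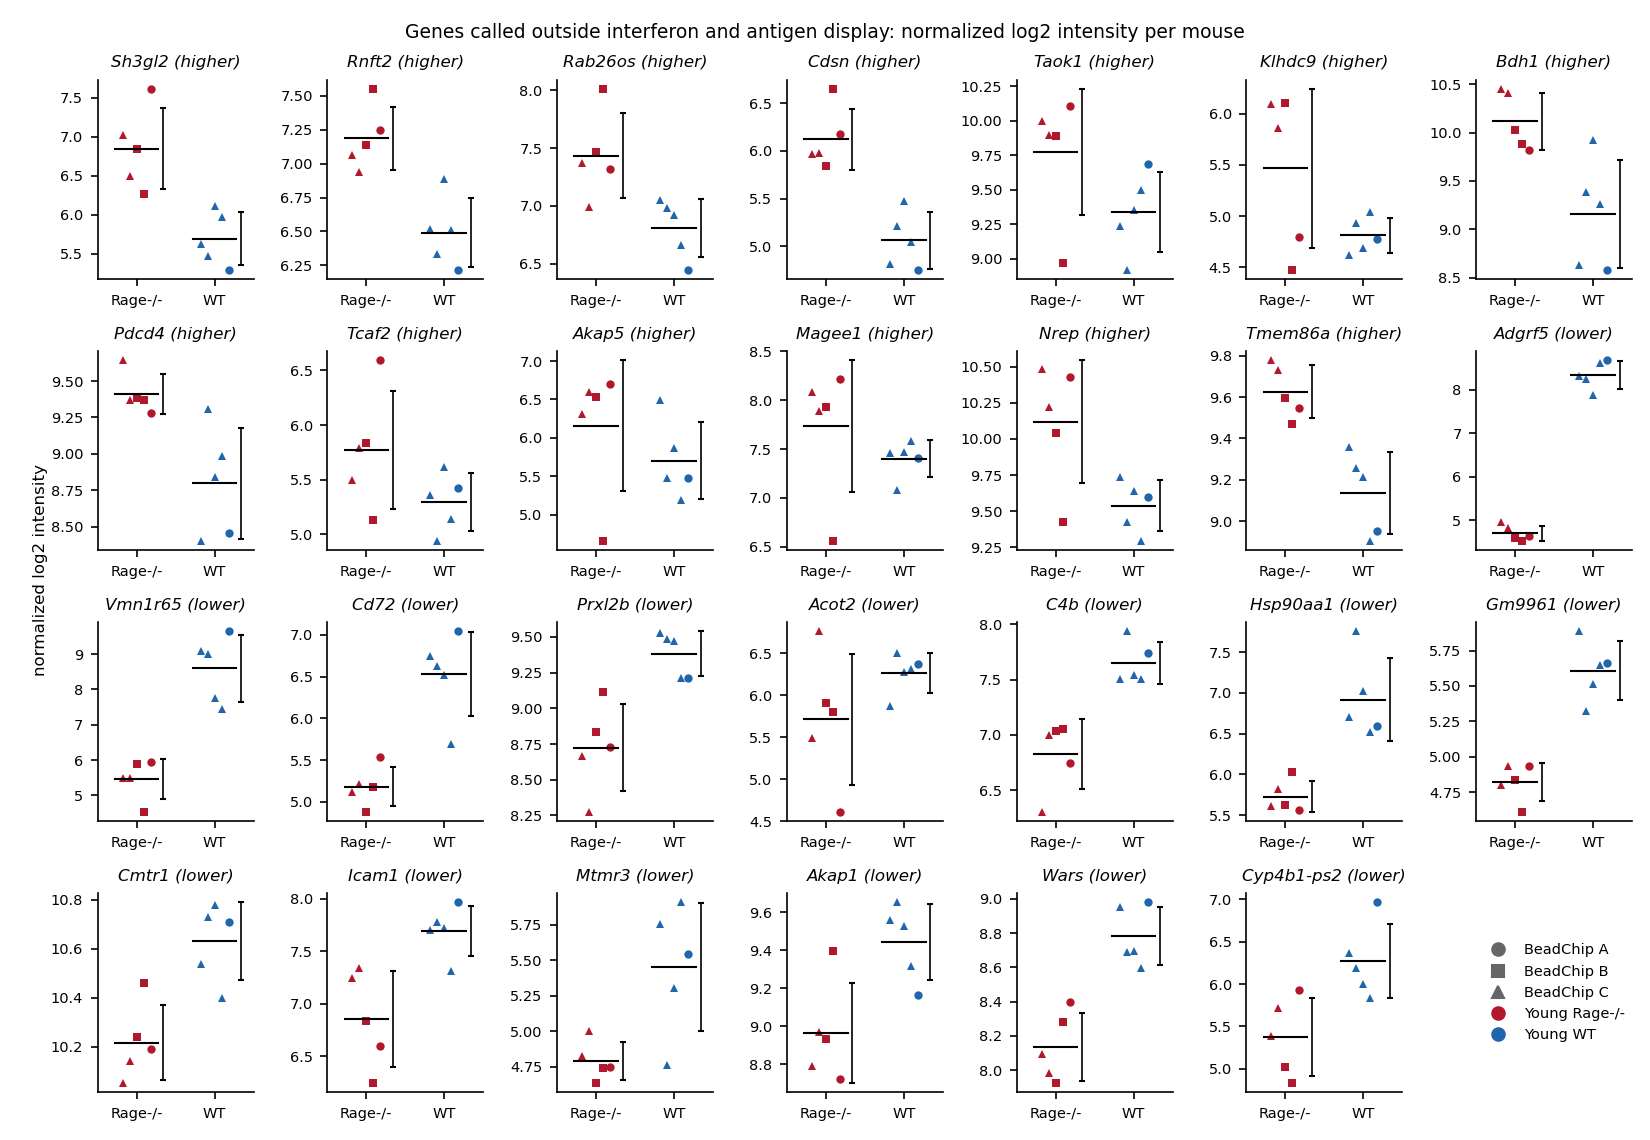
Normalized log2 intensity (vertical axis, scaled to each gene) of the 27 genes called outside interferon and antigen display, with Young Rage-/- mice left of Young WT mice. Each point is 1 mouse, its shape gives the BeadChip, and lines and bars are means ± SD (n = 5 each); 4 of the 13 genes called higher and 8 of the 14 called lower show no overlap of the genotypes.

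Of the 14 genes called lower outside interferon and antigen display, Vmn1r65 had the largest difference after Adgrf5. It is annotated as a pheromone receptor of the vomeronasal organ. It read 5.49, 5.51, 5.88, 4.53 and 5.96 in Rage-/- mice, against 9.10, 9.01, 7.76, 7.45 and 9.64 in WT mice, with 2 Rage-/- and all 5 WT arrays above background. The difference was -2.95 ± 0.27 (adjusted p = 7.2e-07), and -3.06 within the BeadChips (adjusted p = 0.0341) and -0.94 in the authors' values (0.000138). Whether the probe also binds another transcript was not tested. Prxl2b, an enzyme that makes prostaglandin F2-alpha, read 8.67, 8.27, 8.83, 9.11 and 8.73 in Rage-/- mice, against 9.53, 9.49, 9.47, 9.21 and 9.21 in WT mice. All 5 Rage-/- mice were below all 5 WT mice, with a difference of -0.63 ± 0.12 (adjusted p = 0.00901). Ptgds, another prostaglandin synthase, just missed the threshold at -0.93 (0.0504), with WT 5 at 9.25 inside the Rage-/- range and the other WT mice at 10.57 to 11.03.

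Of the 14 genes called lower, Cd72, Icam1 and C4b act in immunity. Cd72, a receptor of B cells and some macrophages, read 5.12, 5.22, 4.88, 5.18 and 5.53 in Rage-/- mice, against 6.75, 6.63, 6.52, 5.70 and 7.04 in WT mice, without overlap (-1.24, adjusted p = 0.00152). Its probe was above background on 1 Rage-/- and 4 WT arrays, so the size of its difference is uncertain. Icam1, the endothelial adhesion molecule that leukocytes grip, read 7.25, 7.34, 6.84, 6.24 and 6.60 in Rage-/- mice, against 7.70, 7.78, 7.72, 7.31 and 7.96 in WT mice (-0.82, adjusted p = 0.0271); WT 4 lay within the Rage-/- range. C4b, a complement component that tags surfaces for clearance, read 6.30, 7.0, 7.03, 7.05 and 6.75 in Rage-/- mice, against 7.51, 7.94, 7.54, 7.50 and 7.74 in WT mice, without overlap (-0.85, adjusted p = 0.0203). Its near-identical copy C4a, chosen after its values were seen, differed by -0.78 (0.122), and the probes of this pair may share transcripts. Cd72 kept the call without each mouse in turn, while C4b lost it without Rage-/- 1, Rage-/- 5, WT 2 or WT 5, and Icam1 without 7 of the 10 mice.

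Each list of inflammatory function held at most 1 call, where 0.733% of all named genes were called. Complement and coagulation had C4b as its 1 call among 19 genes, 9 positive and 10 negative differences and a median of -0.067, which was 0.068 without WT 5. Chemokines and adhesion had Icam1 as its 1 call among 25, 18 of them negative (median -0.11). NF-kappaB targets, genes that RAGE signaling can switch on, also had only Icam1 called among 14 (median -0.12, -0.034 in the authors' values), out of 32 listed. Pattern receptors and inflammasome genes had 12 of 15 negative (median -0.20, -0.016 in the authors' values and -0.073 without WT 5) and no call, led by Cd14 (-0.70, adjusted p = 0.15) and Casp1 (-0.81, adjusted p = 0.249). Cd14, a coreceptor for bacterial lipopolysaccharide, read 6.05, 5.99, 6.16, 4.78 and 6.07 in Rage-/- mice, against 6.76, 6.20, 6.66, 6.62 and 7.19 in WT mice. RAGE ligands and partners had no call among 18 genes (median -0.065, 0.033 without Rage-/- 1). Its leading genes were Tlr2 (-0.43, adjusted p = 0.314) and Hagh (0.25, adjusted p = 0.389), the glyoxalase that completes the detoxification of methylglyoxal, a source of glycation. Hagh read 9.69, 9.59, 9.65, 9.59 and 9.97 in Rage-/- mice, against 9.27, 9.31, 9.59, 9.54 and 9.53 in WT mice, without passing the threshold. Every Rage-/- mouse was above every WT mouse, as in 0.562% of all named genes, but Rage-/- 2 and WT 3 were nearly equal.

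Macrophage markers were mostly lower in Rage-/- mice without passing the test. Of 16 measured markers 15 had negative differences, with a median of -0.49 and none called. C1qc and C1qa, chains of the complement starter C1q that tissue macrophages make, had the smallest p values (-0.82, adjusted p = 0.0638 and -1.0, adjusted p = 0.0723). C1qa read 6.04, 7.27, 6.77, 5.79 and 6.56 in Rage-/- mice, against 8.01, 7.83, 7.47, 7.28 and 7.64 in WT mice, without overlap, as in 1.61% of all named genes. C1qb (-0.55, adjusted p = 0.147), the chemokine Ccl9 (-1.03, adjusted p = 0.0589) and properdin, Cfp (-0.71, adjusted p = 0.059), chosen after their values were seen, had the same sign. The score of the list, the mean deviation of its markers from their mean over the 10 mice, was -0.84 to 0.13 in Rage-/- mice and -0.024 to 0.70 in WT mice, with Rage-/- 4, the array with the fewest detected probes, lowest. Over all named genes the same score was -0.15 in Rage-/- 4, and -0.0020 to 0.059 across the other 9 mice. The median was -0.42 within the BeadChips, -0.60 to -0.37 as each mouse was left out and -0.13 in the authors' values. None of the 16 is in the interferon or antigen lists. Their part in the differences of Cd72, Icam1, C4b and the interferon-inducible genes was not tested.

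Red cell transcripts were brighter in Rage-/- mice without passing the test. The 4 measured genes of the erythroid list, out of 13, were all higher in each Rage-/- mouse than in any WT mouse, although none was called. Such a separation was seen in 0.562% of all named genes. Hba-a1, an alpha-globin, read 12.48, 12.77, 12.95, 12.66 and 12.73 in Rage-/- mice, against 11.44, 10.56, 11.24, 11.25 and 9.98 in WT mice (1.78 ± 0.53, adjusted p = 0.167). Hbb-bs, a beta-globin, read 13.75, 13.92, 13.95, 13.97 and 14.25 in Rage-/- mice, against 12.98, 12.14, 12.67, 12.70 and 11.41 in WT mice (1.60 ± 0.50, adjusted p = 0.19). Hbb-bt (1.56, adjusted p = 0.211) and Alas2, the first enzyme of heme synthesis in red cell precursors (1.66, adjusted p = 0.223), named because they complete the list, were alike. The globin copies are nearly identical and their probes may share transcripts, so the globins are not separate measurements of each other. The list's score was 0.57 to 1.03 in Rage-/- mice and -1.56 to -0.19 in WT mice, with WT 5 lowest. Its median was 1.63, and 1.66 within the BeadChips, 1.70 in the authors' values and 1.21 to 1.79 with each mouse left out; in MA and Old mice it was 0.51 and 0.81. The part of blood in the other differences was not tested.

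Markers of ventricular cardiomyocytes and vessels had medians near 0, while fibroblast markers were mostly positive and atrial markers mostly negative, all without a call. The 14 ventricular cardiomyocyte markers had a median of 0.021 and scores of -0.052 to 0.10 in Rage-/- mice and -0.12 to 0.11 in WT mice, with Actc1 (0.17) and Tcap (0.13) of smallest p. Endothelial markers had a median of -0.053 over 15 genes (Ly6c1 -0.48, Emcn 0.27), pericyte and smooth muscle markers 0.078 over 10 (Rgs5 -0.30, Mylk -0.23) and lymphatic markers 0.14 over 5 (Pdpn 0.26, Reln 0.26). Fibroblast markers had 9 of 11 positive and a median of 0.20 (0.053 in the authors' values, -0.031 with the fixed block), with Tcf21 (0.72) and Dcn (-0.21) of smallest p. Atrial markers spread widely within both genotypes, with scores of -1.86 to 1.41 in Rage-/- mice and -2.17 to 0.92 in WT mice. Of 9 atrial markers 8 had negative differences, with a median of -0.33 (Pam -0.33, Gja5 0.26). That median was 0.45 without surrogate variables, -0.71 with the fixed block, 0.10 within the BeadChips, 0.49 without Rage-/- 5 and 0.29 without WT 5, so no direction is given for it. The part of atrial tissue in other differences was not tested.

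Other cell types were thinly measured. No B lymphocyte marker of 13 and 4 of 24 T and NK markers had a tested probe; Thy1 (0.61, adjusted p = 0.194) and Prf1 (-0.077) led the second list. Neutrophil markers had 5 measured (Elane -0.57, Lcn2 -0.28) and mast cell markers 2, of which Hdc, the histamine-making enzyme, was lower in all 5 Rage-/- mice (6.88, 7.03, 7.24, 6.68 and 7.32, against 7.46, 7.72, 7.66, 7.47 and 7.68 in WT mice) without being called (-0.52, adjusted p = 0.518). Every Rage-/- mouse lay below every WT mouse in 1.05% of all named genes. Single genes or pairs stood for platelets (Pf4 -0.07), adipocytes (Cidea -0.21, Lipe 0.034), mesothelium (Upk3b -0.28), nerve (Mbp -0.065, Uchl1 0.018), thymus (Satb1 0.088, Cd8b1 0.052) and lung epithelium (Hopx -0.087), none of them called. Skeletal muscle markers had 5 measured and a median of 0.072 (Pvalb 0.32).

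**Figure D3:**
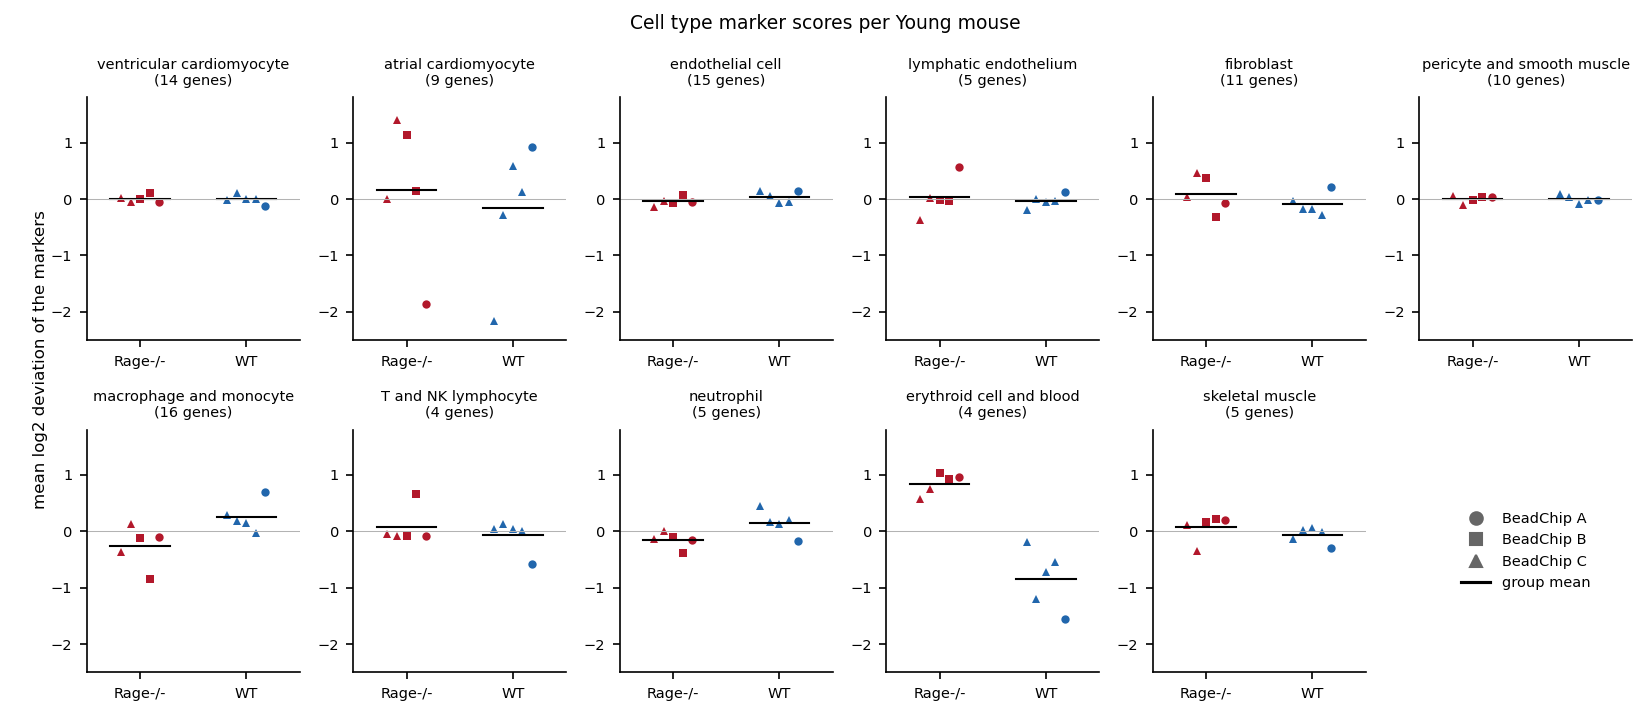
Score of each cell type list with at least 4 measured genes in the 10 Young mice, Rage-/- left of WT: the mean log2 deviation of the list's markers from their mean over these mice (vertical axis), with a line at each group mean and point shapes for the BeadChips. Erythroid scores separate the genotypes (0.57 to 1.03 in Rage-/- mice, -1.56 to -0.19 in WT mice), macrophage scores overlap, and atrial scores vary most within a genotype.

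Contractile and electrical genes held no call. Sarcomere genes had a median of -0.035 over 23. Their leading gene Cryab, the chaperone of desmin filaments, read 11.87, 11.87, 11.77, 11.83 and 11.54 in Rage-/- mice, against 12.14, 11.91, 11.93, 11.88 and 12.11 in WT mice (-0.31, adjusted p = 0.416). Each Rage-/- mouse was lower than any WT mouse, but Rage-/- 1, Rage-/- 2 and WT 4 were nearly equal. Synpo2l followed (-0.38, adjusted p = 0.433). Calcium handling genes had a median of -0.074 over 19, led by S100a1 (-0.30, adjusted p = 0.416), which is also a RAGE ligand, and Itpr2 (-0.28, adjusted p = 0.534). Among 22 channel genes Scn4b, a subunit of the cardiac sodium channel, read 8.82, 9.66, 8.36, 8.37 and 8.42 in Rage-/- mice, against 8.11, 7.84, 8.32, 8.23 and 8.10 in WT mice (0.50, adjusted p = 0.383), with Rage-/- 2 highest; Kcnv2 was next (-0.33, adjusted p = 0.54). In the stretch and fetal programme, 14 genes with no call, Nppb encodes B-type natriuretic peptide. It read 11.01, 10.72, 10.86, 10.49 and 10.86 in Rage-/- mice, against 11.67, 11.48, 11.02, 11.04 and 11.81 in WT mice (-0.70, adjusted p = 0.433). Every Rage-/- mouse was below every WT mouse, Rage-/- 1 and WT 3 being nearly equal. Such a separation held for 1.05% of all named genes. In MA mice the difference of Nppb was 1.20 (adjusted p = 0.0544). Acta1, fetal alpha-actin, differed by 0.35 (0.636).

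Matrix and growth factor genes were likewise without a call. Extracellular matrix genes had 16 positive and 14 negative differences among 30 (median 0.064), led by Col8a1, a short-chain collagen (0.58, adjusted p = 0.186), and Eln, elastin (-0.76, adjusted p = 0.204). TGF-beta and BMP signaling genes had a median of 0.04 over 26, led by Tgfbr2 (0.26, adjusted p = 0.445) and Eng (-0.27, adjusted p = 0.555). Angiogenesis and Notch genes had Adgrf5 as the only call among 25 and a median of -0.11.

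Stress and protein quality lists held 1 call beside Rnft2. Hsp90aa1, the stress-inducible form of the chaperone Hsp90, read 5.62, 5.82, 5.62, 6.02 and 5.56 in Rage-/- mice, against 6.70, 7.75, 7.02, 6.52 and 6.59 in WT mice, without overlap (-0.98, adjusted p = 0.0264). Its probe was dim, above background on 2 of 5 Rage-/- and 5 of 5 WT arrays, and the call was lost without 5 of the 10 mice, one at a time. Of 23 heat shock and folding genes 17 had negative differences (median -0.13, -0.20 to -0.093 with a mouse left out). Among them, chosen after their values were seen, Hspb1 read 9.81, 9.91, 10.02, 9.47 and 9.71 in Rage-/- mice, against 10.40, 10.08, 10.17, 10.40 and 10.48 in WT mice (-0.56, adjusted p = 0.178). Hspa1a read 4.48, 4.64, 4.75, 4.45 and 5.98 in Rage-/- mice, against 6.51, 8.97, 8.47, 4.77 and 6.42 in WT mice (-1.67, adjusted p = 0.287), with WT 4 inside the Rage-/- range. Immediate early genes, which respond quickly to stimuli and handling, had 14 of 19 negative (median -0.10, -0.29 to -0.042 with a mouse left out) and no call, led by Ccn1 (-0.46, adjusted p = 0.561). The gene of next smallest p, Fosb, was above background on no Young array, as was 1 other gene of the list.

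Further stress lists held no call. Hypoxia response genes had 14 of 18 negative (median -0.11, -0.13 to -0.057 with a mouse left out), led by Pfkfb4 (-0.47, adjusted p = 0.212) and Hif1a, above background on no Rage-/- and 1 WT array (adjusted p = 0.534). Oxidative stress defence had 19 of 28 negative (median -0.11, -0.12 to -0.0031 with a mouse left out), led by Sod1, a superoxide dismutase (-0.36, adjusted p = 0.48), and Cyba (-0.28, adjusted p = 0.534). The unfolded protein response had a median of -0.066 over 21 (Dnajb9 0.24, Sel1l 0.25), the proteasome core -0.027 over 24 (Psmd12 0.29, Psma4 -0.21) and autophagy and lysosome genes 0.012 over 28 (Ctsc -0.44, Laptm5 -0.47). Apoptosis and necroptosis genes had a median of 0.0077 over 22, led by Casp1 and Tnfsf10 (-0.52, adjusted p = 0.286).

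Nuclear and growth processes showed small shifts. Circadian clock genes had 12 of 16 positive, a median of 0.12 and no call, led by Rora (-0.48, adjusted p = 0.534) and Csnk1d (0.22, adjusted p = 0.596); the hour of dissection is not given in the sources used here. Cell cycle genes had 11 of 15 positive (median 0.12, 0.023 to 0.23 with a mouse left out), led by the cell cycle brake Cdkn1a (-0.85, adjusted p = 0.335) and the replication gene Mcm2 (0.59, adjusted p = 0.433). DNA damage and p53 genes had a median of 0.046 over 23, again with Cdkn1a first and Xrcc1 next (0.33, adjusted p = 0.462). Splicing and RNA-binding genes had a median of 0.004 over 31 (Hnrnph1 -0.38, Srsf6 0.36). Ribosomal protein genes had 25 of 37 negative with a median of -0.081, led by Rps6 (-0.38, adjusted p = 0.31) and Rps16 (-0.26, adjusted p = 0.433). None was called. Their scores of -0.073 to -0.00088 in Rage-/- mice and 0.0037 to 0.085 in WT mice did not overlap, but Rage-/- 4 and WT 5 were nearly equal. Scores of angiogenesis and Notch, interferon-inducible and erythroid genes also separated the genotypes, and no separation of scores was tested.

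**Figure D4:**
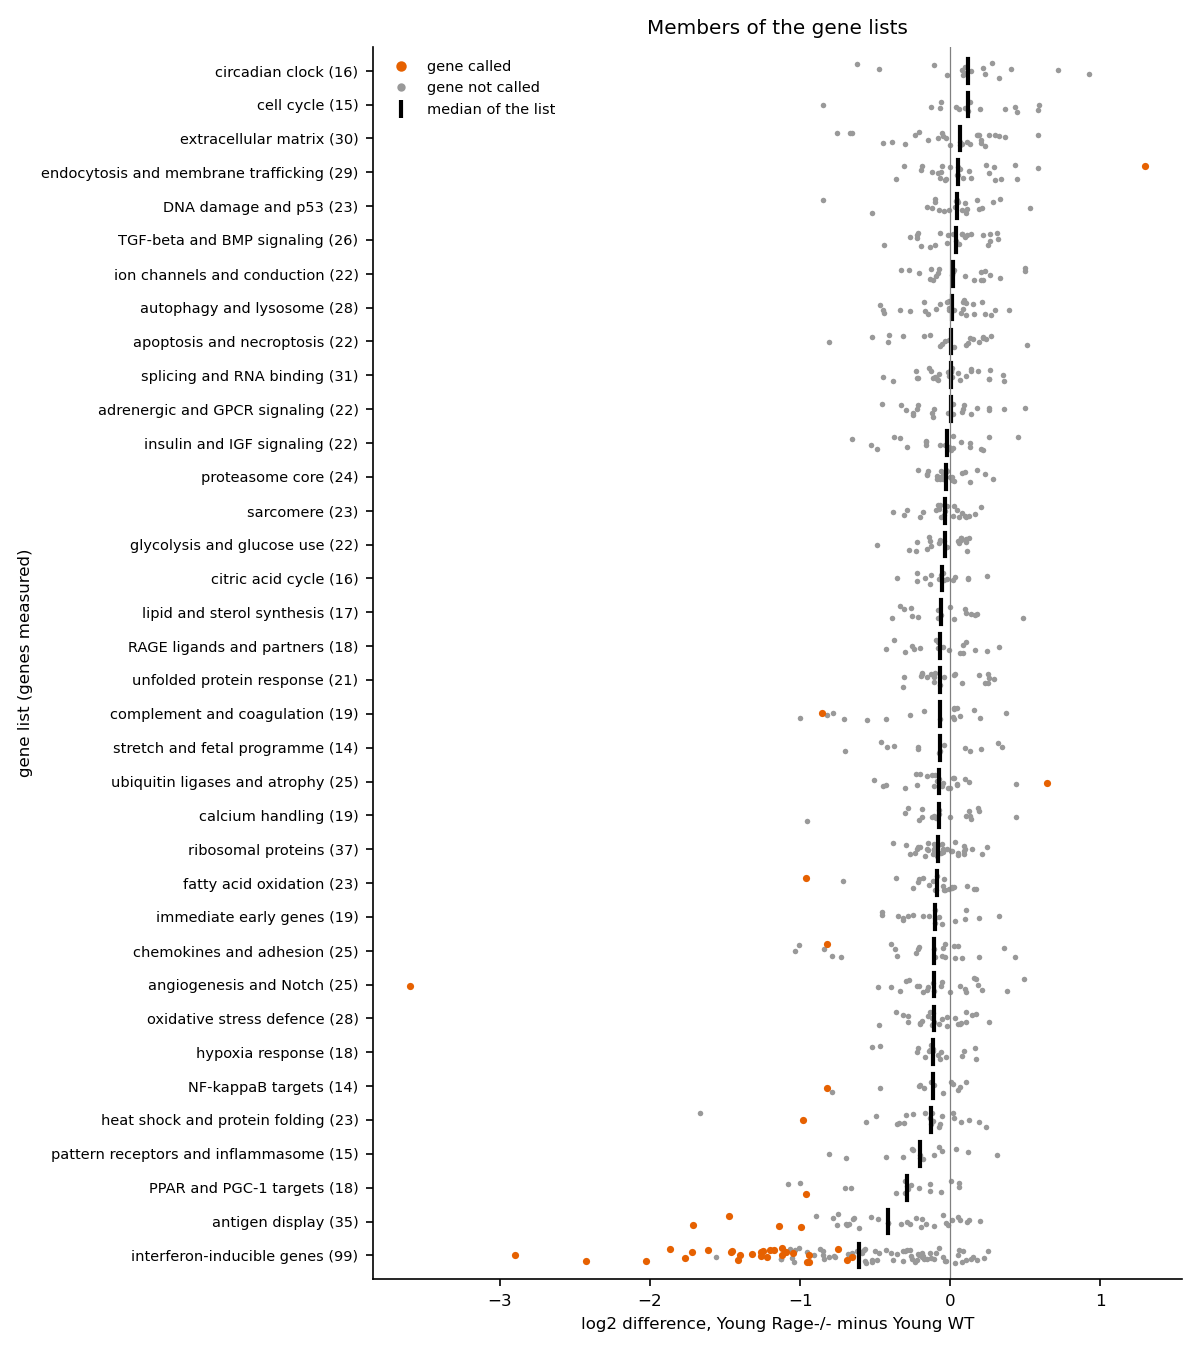
Log2 difference (Young Rage-/- minus Young WT, horizontal axis) of every measured gene of each process list, 1 list per row with the number measured in brackets; orange points are called genes, grey points are not, and black bars are list medians. Medians lie between -0.28 and 0.12 in all lists but antigen display (-0.41) and interferon-inducible genes (-0.61).

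Of the 14 genes called lower, 8 had every Rage-/- mouse below every WT mouse, which held for 1.05% of all named genes. The remaining 5 were Cmtr1, Wars, Mtmr3, Gm9961 and Cyp4b1-ps2. Cmtr1, which methylates the mRNA cap, and Wars, the tryptophan tRNA synthetase, were outside the interferon list but are known to be raised by interferons. Cmtr1 read 10.05, 10.14, 10.24, 10.46 and 10.19 in Rage-/- mice, against 10.54, 10.73, 10.78, 10.40 and 10.71 in WT mice (-0.47, adjusted p = 0.0268). Wars read 8.10, 7.98, 7.92, 8.28 and 8.40 in Rage-/- mice, against 8.95, 8.69, 8.69, 8.60 and 8.98 in WT mice, without overlap (-0.60, adjusted p = 0.0451), and its second probe differed by -0.14 (adjusted p = 0.918). Mtmr3, a lipid phosphatase (adjusted p = 0.0311), and the predicted gene Gm9961 (0.0268) were above background on no Rage-/- array and on 3 and 2 WT arrays, and no bound on their fold is given. The pseudogene Cyp4b1-ps2 (-0.82, adjusted p = 0.0481) was above background on 2 Rage-/- and 5 WT arrays. All 5 lost their calls without 5 to 8 of the 10 mice, one at a time.

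Some probes of 1 gene disagreed. Klf4, P4ha1, Mapk1ip1, Fbxo31 and Tmem131l, a list chosen after their values were seen, each had a dimmer probe called lower (-1.0 to -0.64) while the brightest probe was not called (-0.23 to 0.13). For Fbxo31 and Tmem131l the brightest probe had the opposite sign, so no direction is given for them. Of 4 Pdcd4 probes 3 were positive and the dimmest negative at -0.67 (adjusted p = 0.278), and of 4 Taok1 probes 2 were positive. Just outside the threshold were Wnk4, a kinase of ion transport (0.65, adjusted p = 0.05004), Gvin1, an interferon-induced GTPase (-1.04, adjusted p = 0.0504), Kpna3, a nuclear import receptor (0.58, adjusted p = 0.0518), and Ogfr, the opioid growth factor receptor (-0.56, adjusted p = 0.0518), beside Ptgds. Just inside it were Tmem86a (0.0483) and Nrep (0.0482).

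Interferon-inducible and antigen genes were lower as a group. Of 99 measured interferon-inducible genes 28 were called lower and 88 had negative differences (median -0.61, -0.19 in the authors' values). Of 35 antigen display genes 4 were called lower and 29 were negative (median -0.41, -0.14 in the authors' values). Together with symbols of the same families that neither list holds, 33 of 138 genes were called (23.9%), against 0.335% of the rest. The smallest p values belonged to the GTPases Igtp (-2.90) and Irgm2 (-2.43) and to H2-Q5 (-1.48), Lgals3bp (-1.61), Nlrc5 (-1.71) and Irf7, which was at least 2.32-fold lower. Igtp read 7.51, 8.13, 8.07, 7.43 and 7.79 in Rage-/- mice, against 10.92, 11.03, 10.33, 9.96 and 11.42 in WT mice. H2-T23 was called by all 3 of its probes (-1.53 to -1.09). Only 7 probes were called in the main fit, the authors' values, both BeadChip blocks and within the BeadChips: those of Adgrf5, Vmn1r65, Igtp, Irgm2, H2-Q5, 1 of H2-T23 and ILMN_2476405.

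The promoters of called genes were read from RefSeq (GRCm38.p6), 250 bases before to 50 after each annotated start. Promoters were matched for 6678 of the 8189 genes. The pattern GAAANNGAA, the core of the interferon-stimulated response element, was searched on both strands. It occurred in 14 of 24 promoters of interferon or antigen genes called lower (58.3%), in 0 of 9 of the other genes called lower, in 1 of 12 of those called higher (Cdsn) and in 8.51% of all. The 24 come from lists of interferon-inducible and antigen genes, so a high share of this element was built in. Members of those lists that were not called were not counted apart. TTCNNNGAA, the STAT site, occurred in 8 of those 24, in 2 of 9 (Vmn1r65 and Icam1), in 2 of 12 (Cdsn and Pdcd4) and in 8.13% of all. The E-box CACGTG was found in Rnft2 alone among genes called outside interferon and antigen display, and the cyclic AMP element TGACGTCA in Sh3gl2 alone, against 12.5% and 3.67% of all promoters. The D-box TTATGTAA and GGACTTTCC, an exact form of the kappaB site, were in no matched promoter of a called gene, and in 0.629% and 0.539% of all. Sites for NF-kappaB vary in sequence, and other forms were not searched, so their absence from called genes cannot be read from this. Matches are descriptions of letters and not of binding.

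The promoters of Igtp and Irgm2, the GTPase genes with the largest differences among interferon-inducible genes, are printed beside that of Icam1, an adhesion gene called lower. They run 5′ to 3′ along the gene, and capitals mark every match to the 6 patterns. The Igtp promoter lies at chr11:58199306-58199605 and that of Irgm2 at chr11:58214727-58215026, both on the plus strand; each holds TTCNNNGAA followed after 2 bases by GAAANNGAA. The Icam1 promoter lies at chr9:21015690-21015989 on the plus strand and, of the 6 patterns, holds TTCNNNGAA only.
Igtp: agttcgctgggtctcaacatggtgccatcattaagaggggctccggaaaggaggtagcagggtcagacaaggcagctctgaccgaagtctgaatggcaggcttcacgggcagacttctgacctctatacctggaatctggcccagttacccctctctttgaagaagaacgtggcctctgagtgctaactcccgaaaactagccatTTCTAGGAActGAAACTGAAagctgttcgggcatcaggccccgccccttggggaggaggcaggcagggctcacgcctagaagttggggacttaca
Irgm2: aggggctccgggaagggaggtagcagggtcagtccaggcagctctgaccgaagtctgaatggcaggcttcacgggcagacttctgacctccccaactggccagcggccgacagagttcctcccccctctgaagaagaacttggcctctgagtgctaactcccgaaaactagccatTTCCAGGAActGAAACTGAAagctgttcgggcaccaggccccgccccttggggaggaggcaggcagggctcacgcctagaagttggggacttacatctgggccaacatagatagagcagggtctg
Icam1: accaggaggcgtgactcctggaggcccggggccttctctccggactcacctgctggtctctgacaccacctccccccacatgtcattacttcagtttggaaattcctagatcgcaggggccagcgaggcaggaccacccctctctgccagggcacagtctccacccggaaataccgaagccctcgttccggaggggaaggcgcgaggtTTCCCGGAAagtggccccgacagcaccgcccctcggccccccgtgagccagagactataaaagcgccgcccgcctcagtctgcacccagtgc

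The genotype difference was fitted at all 3 ages. In the MA comparison 252 probes were called (1.9%) and in the Old comparison 7 (0.0527%), from other mice but fitted with the same surrogate variables. By brightest probe this was 1.8% and 0.0733% of named genes. The MA genotypes lay on separate BeadChips, so genotype and BeadChip cannot be told apart in the MA calls. In the Old calls they can be told apart only in part, as Old Rage-/- 1 to 4 lay on a BeadChip without Old WT arrays. The 13 genes called higher had a median difference of 0.695 in Young, -0.085 in MA and 0.083 in Old mice, and Cdsn and Tcaf2 were called higher in MA mice too. The 14 called lower outside interferon and antigen display had medians of -0.82, 0.049 and 0.095, and the 33 interferon or antigen genes -1.26, -0.25 and 0.19. All 3 sets were picked by their Young difference, so smaller differences at the other ages are partly built in. Adgrf5 was lower at all 3 ages. Prxl2b had differences of -0.63, -0.49 (adjusted p = 0.0501) and -0.46 (0.526) in Young, MA and Old mice.

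The change of the genotype difference with age was tested directly, and was called for none of the 13 genes called higher. Between Young and MA mice it was called for 14 probes (0.105%), among them Vmn1r65, Cd72 and Akap1. Between Young and Old mice it was called for 30 probes (0.226%), among them Vmn1r65, Cd72, C4b, Icam1 and 16 interferon or antigen genes. C4b was lower in Young Rage-/- mice and higher in Old Rage-/- mice (0.98, adjusted p = 0.0443), and the difference of the 2 was -1.83 (adjusted p = 0.000412). The Young minus Old difference was -3.10 for Vmn1r65 (adjusted p = 0.000174) and -1.62 for Cd72 (0.00506). The Young minus MA difference of Akap1 was -0.99 (0.0401). These counts moved by more than 1.5 times as single mice were left out: Young against MA 1 without Rage-/- 1 and 117 without WT 5, Young against Old 16 without WT 5 and 71 without WT 4. For genes called in Young mice, these tests reuse the Young arrays that picked them. In Young against MA, the MA side cannot tell genotype from BeadChip. In Young against Old, Old Rage-/- 1 to 4 lay on BeadChip A, which held no Old WT array. On the Old side, C4b included, genotype and BeadChip can therefore be told apart only in part.

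**Figure D5:**
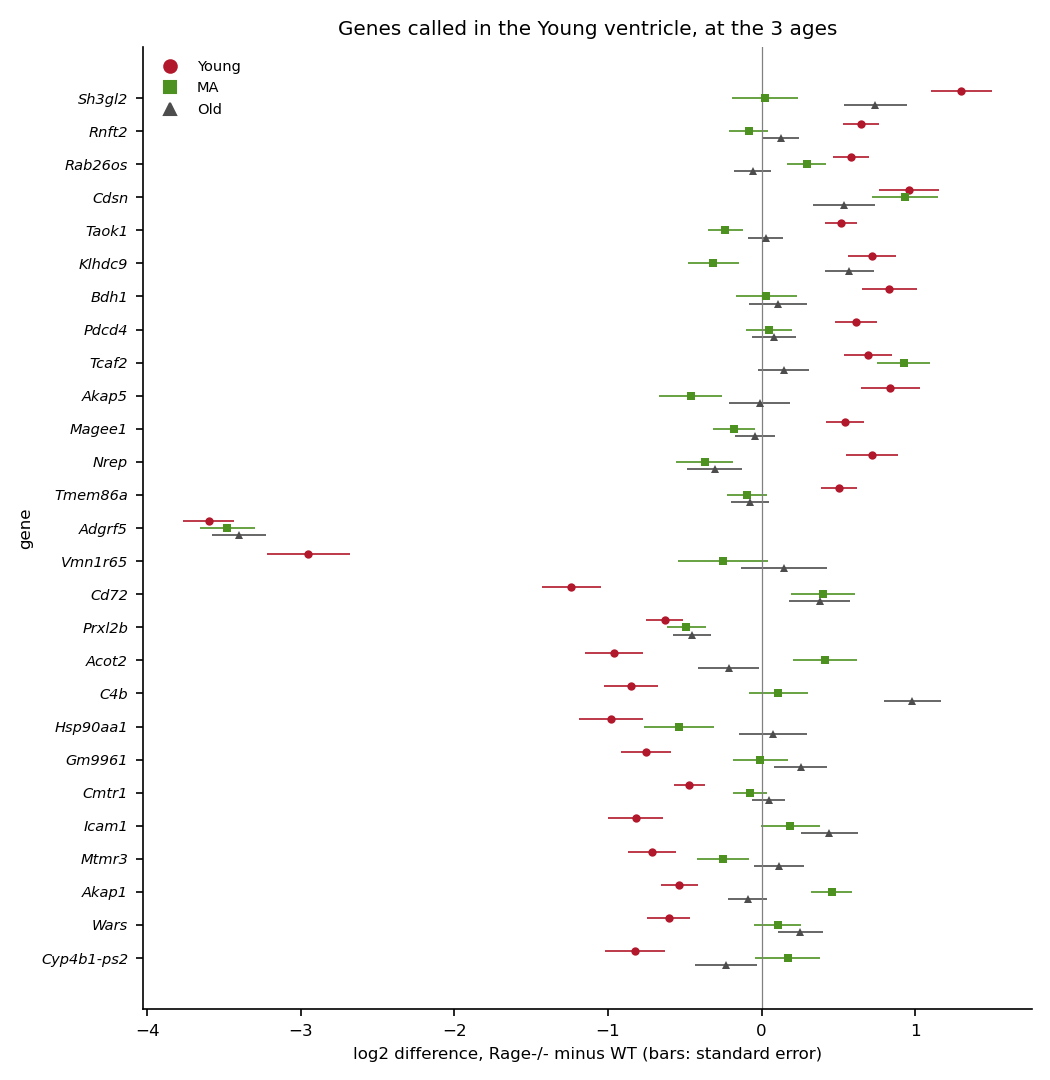
Log2 difference (Rage-/- minus WT, horizontal axis) ± standard error of the 27 genes called outside interferon and antigen display, 1 gene per row, in Young, MA and Old mice. Adgrf5 is below -3 at all 3 ages, Vmn1r65 lies near 0 in MA and Old mice, and Cd72 (0.40 and 0.38) and C4b in Old mice (0.98) lie above 0.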

How the data were processed

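Left ventricular RNA of 29 female mice was labelled as biotin cRNA and hybridised to Illumina MouseWG-6 arrays, 1 per mouse. The authors exported bead intensities and a detection score (1 minus the detection p) per probe with GenomeStudio 2011.1. The authors also deposited normalized log2 values of 13277 probes, made with lumi (variance-stabilizing transformation, then robust spline normalization; detection p under 0.01 in at least 25% of arrays). The annotation of the platform gave 1 gene for 11504 of these probes, several for 6 and none for 1767.

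Here the deposited intensities were background-corrected and quantile normalized with neqc (limma 3.58.1, R 4.3.3, offset 16), which inferred the level of negative controls from the detection column, and the same 13277 probes were kept out of 45281. The limma fit held all 29 arrays, with 1 mean per age and genotype and the first 5 of 7 surrogate variables, as in the methods of the study, estimated in 5 rounds (18 residual degrees of freedom). Adjusted p values are Benjamini-Hochberg values over all probes, also for single genes. A gene was read by its brightest probe over the 10 Young arrays. Groups came from the sample titles, whose numbers were taken to mark separate mice.

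Named genes were every gene called higher; up to 20 called lower outside interferon and antigen display and outside symbols of those families; 6 called lower inside them; in each list every called gene or, with none called, the 2 of smallest p; the 5 that just missed; and genes called in all 5 fits. The members and lists were chosen with earlier results of these data known. Lists were described by counts and medians and not tested. Within BeadChips A and C the fit left 5 residual degrees of freedom. The fit was tested on simulated data. The number of mice limits the precision. Samples with the same label number did not deviate together for numbers 1 to 4. Those of number 5, both on BeadChip A, did (correlation 0.411). The number was not used as a block in the reported fit. Alternatives were other normalizations, filters, surrogate variables, BeadChip terms and each Young mouse left out.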

Additional observations from a re-analysis of the deposited data

Results flagged for a closer look

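A single mouse stood apart from the other 4 of its genotype, by Dixon's criterion, in 31 of 368 gene or list groups examined. For a group on its own, chance gives about 1 in 20. The groups share arrays and genes, and the mesothelium and lung epithelium scores rest on Upk3b and Hopx alone. The 31 are therefore not separate observations, and no excess over chance can be read from them. Rage-/- 4, the array with the fewest detected probes, was lowest for Taok1 (8.97), Akap5 (4.65), Magee1 (6.56), Psmd12 (9.45) and Cd14 (4.78) and highest for Synpo2l (7.61) and Prf1 (10.23). Rage-/- 5 was lowest for Rora (6.30), Csnk1d (8.02) and Tcap (14.19) and highest for Hagh (9.97) and Hspa1a (5.98). Rage-/- 1 was highest for Pdcd4 (9.64) and lowest for H2-T23 (7.63). WT 5 was highest for Tlr2 (7.19) and lowest for Dcn (12.33), Hopx (11.46) and Ptgds (9.25), and WT 1 was lowest for Upk3b (5.75). Among list scores, Rage-/- 4 was lowest for the citric acid cycle (-0.48) and TGF-beta and BMP signaling (-0.12) and highest for T and NK lymphocytes (0.66). Rage-/- 5 was lowest for calcium handling (-0.40), and Rage-/- 2 was highest for ion channels (0.18) and lowest for skeletal muscle (-0.34). WT 5 was lowest for ion channels (-0.25), T and NK lymphocytes (-0.57), thymus (-0.41) and lung epithelium (-0.72), WT 1 was lowest for mesothelium (-0.65), and WT 1 was highest for ribosomal proteins (0.085).

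The genotype difference itself changed with age, by limma's interaction term, for 15 results of the named genes. Outside interferon genes, Young minus Old was -3.10 for Vmn1r65 (adjusted p = 0.000174), -1.62 for Cd72 (0.00506), -1.83 for C4b (0.000412), -1.26 for Icam1 (0.025), -1.69 for Ccl9 (0.0388) and -1.64 for C4a (0.0143). Young minus MA was -2.70 for Vmn1r65 (0.0171), -1.64 for Cd72 (0.0345) and -0.99 for Akap1 (0.0401). Among interferon and antigen genes, Young minus Old was -3.52 for Igtp, -2.75 for Irgm2, -1.41 for H2-Q5, -1.87 for Lgals3bp, -2.22 for Nlrc5 and -2.49 for Irf7. C4a and C4b are near-identical copies, and count as 1 observation. These genes were picked by Young values from the same arrays, and the MA genotypes lay on separate BeadChips. Old Rage-/- 1 to 4 lay on BeadChip A, which held no Old WT array.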

How the results depend on the processing

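Of the 60 called genes, the 34 picked out by the rules above were followed through the alternatives, counting each gene in each fit. They kept their sign in all 804 such results and stayed under the threshold in 481. They were picked by their Young difference in these same arrays, so a kept sign was largely built in. Of 2289 results of the 96 picked genes that were not called, 72 passed the threshold and 53 changed sign. The 54 list medians moved by no more than the spread between mice in 1242 of 1294 fits. Causes were not tested, except that fits without surrogate variables, of Young arrays alone or within BeadChips hold fewer terms or arrays.

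Calls of Young Rage-/- minus Young WT numbered 138 on log2 and quantile values without background correction, 54 without surrogate variables, 31 in the Young arrays alone, 27 with BeadChip as a fixed block, 54 with BeadChip as a random block and no surrogate variables (chosen after seeing the data), 14 within BeadChips and 2 within BeadChip C alone, against 90. Leaving out 1 mouse gave 47 to 119. With label numbers as a replicate block the count was 94, against 90 unpaired; same-numbered mice had deviations correlated at -0.261 to 0.411, and 1 of 5 correlated best with its own number. For Young minus MA the counts were 152 on the authors' values, 82 on quantile values, 65 without a filter, 49 at detection in 75% of arrays, 1 without surrogate variables, 90 with 7 of them, 4 with the fixed block, 0 with the random block and no surrogate variables (limma; 361 at an unadjusted p under 0.05), and 1 to 117 as mice were left out, against 14. The replicate block gave 91. For Young minus Old they were 67, 82, 21, 19, 17, 47, 10 and 14 in the same order, and 16 to 71 as mice were left out, against 30, with 40 under the replicate block.

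Among the genes followed, signs turned only for those that were not called. Within BeadChip C alone the differences were 0.079 for Suclg2, 0.011 for S100a1, 0.15 for Rps6, 0.39 for Hnrnph1, -0.098 for Xrcc1, 0.33 for Lpin1, 0.25 for Gnas, 0.12 for Tnfsf10, -0.15 for Reln, 0.036 for Mylk, 0.17 for Pf4, -0.29 for Lipe, 0.35 for Mbp, -0.10 for Pvalb, -0.00631 for Satb1 and 0.025 for Pdk4. Within both BeadChips they were 0.305 for Pf4, -0.24 for Lipe and 0.048 for Mbp. The authors' values gave 0.028 for Prf1, 0.036 for Mbp and -0.029 for Satb1. The fixed block gave 0.011 for Pf4 and -0.041 for Cd8b1. The mean of probes gave -0.031 for Csnk1d and -0.012 for Uchl1. Uchl1 was also -0.00167 on quantile values, -0.030 without a filter and -0.00956 with 7 surrogate variables. Mbp was also 0.011 on quantile values, 0.23 without surrogate variables, 0.23 in the Young arrays alone and 0.16 with the random block and no surrogate variables. As mice were left out, the difference ran over -0.35 to 0.017 for Cyba, -0.00353 to 0.39 for Reln, -0.36 to 0.033 for Dcn, -0.35 to 0.053 for Pf4, -0.063 to 0.18 for Lipe, -0.27 to 0.19 for Mbp, -0.31 to 0.15 for Uchl1, -0.087 to 0.14 for Satb1 and -0.33 to 0.24 for Hopx.

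Signal over background sets a limit for dim probes: Rage-/- 4 was the dimmest array, and a probe not well above background in a genotype has only a bound there.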
